A study of Drosophila melanogaster with 28 samples.

Results

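MSL2 binding to chromatin reconstituted in vitro was compared between reactions that held MSL2 together with a mutant form of CLAMP and reactions that held MSL2 alone. The comparison used 6 of the 28 samples of the series, 3 with MSL2 + CLAMP mutant and 3 with MSL2, all precipitated with an antibody to MSL2. Both groups share the same DNA, genomic DNA purified from BG-3 cells (a Drosophila line of larval nervous system origin), which was assembled into chromatin for 5 h, bound by the added proteins for 30 min, crosslinked and partly digested with MNase. The labels do not say what the CLAMP mutation is. The authors merged the 3 libraries of a group before calling peaks, so there was 1 peak list per group, with 226 peaks for MSL2 + CLAMP mutant and 132 for MSL2 alone, of 2013 peaks in the 9 lists of the series. A peak was counted as kept when it overlapped a peak of the other list by at least 1 bp, as lost when it was only in the MSL2-alone list, and as gained when it was only in the list with the mutant. Kept peaks are placed at their MSL2-alone position unless stated otherwise.

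MSL2 is the subunit of the male-specific lethal (MSL) complex that reads DNA sequence. In male flies the complex gathers on the single X chromosome, with the noncoding roX RNAs, and raises the transcription of X-linked genes. CLAMP, a zinc finger factor, recognises GA repeats on every chromosome and is known to help the complex to reach its X-linked targets.

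With the mutant present the MSL2 peak list was longer, but it did not contain the whole of the list of MSL2 alone. Of the 132 MSL2-alone peaks, 79 were kept (59.8%, exact 95% interval 51.0 to 68.3) and 53 were lost. The same 79 peaks made up 35.0% of the 226 peaks with the mutant, and the other 147 were gained (65.0%, 58.4 to 71.2). Every kept peak matched exactly 1 peak of the other list, so by this overlap rule the classes together hold 279 sites. Peaks held 0.394% of the 20849151 tags with the mutant and 0.183% of the 26822838 tags of MSL2 alone. On average a peak held 363 tags with the mutant and 372 with MSL2 alone, or 174 and 139 tags once scaled to 10000000, so the longer list was not made of thinner peaks on that scale. The mean covers the whole list, and the tags of single peaks were not used here.

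A peak absent from a list had missed at least 1 of the authors' criteria. Their filters ask for 10-fold more tags than the negative control and 4-fold more than the surrounding 10000 bp. Peaks of the same list also had to lie at least 300 bp apart. The words lost and gained therefore describe list membership and not a measured amount of binding. Both lists were called against the same 3 negative control samples. With 1 merged list per group there is no spread between replicates, and no test between the conditions was possible. All intervals are exact (Clopper-Pearson) and reflect only how many peaks were counted.

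The 2 lists differed in how their peaks were spread over the chromosomes. On X, MSL2 had 90 peaks with the mutant and 71 alone, a ratio of 1.27, whereas on the autosomes it had 135 with the mutant and 60 alone, a ratio of 2.25. Per 10 Mb this was 38.2 and 30.2 peaks on X, and 12.3 and 5.45 on the autosomes. Peaks were thus denser on X than on the autosomes in both lists, and the added peaks were spread mostly over the autosomes. The right and left arms of chromosomes 2 and 3 were alike in this. Arm 2L had 31 peaks with the mutant and 15 alone, 2R had 32 and 11, 3L had 31 and 16, and 3R had 41 and 18. Chromosome 4 had no peak in either list.

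**Figure D1:**
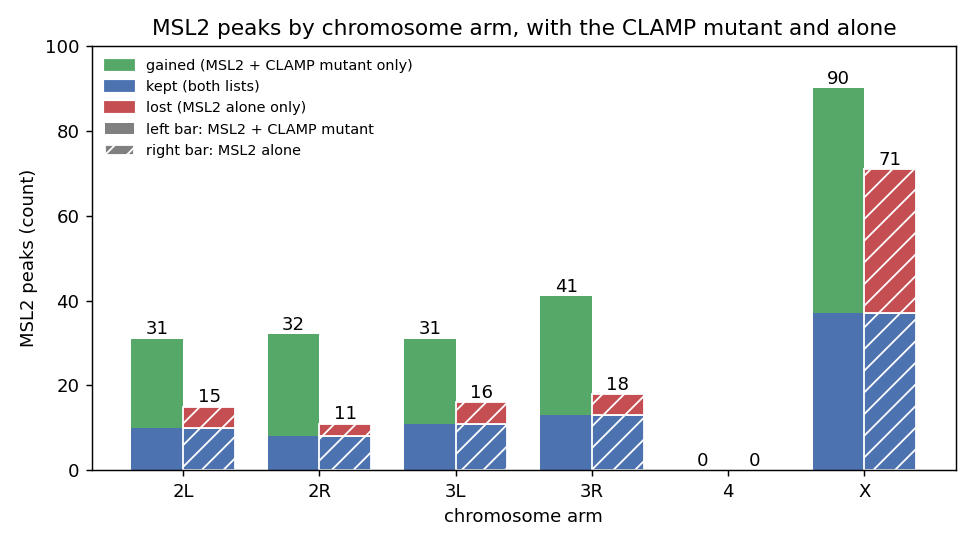
MSL2 peaks (count, vertical axis) on each chromosome arm (horizontal axis), with MSL2 + CLAMP mutant as the plain left bar and MSL2 alone as the hatched right bar, divided into gained, kept and lost peaks. On X 90 peaks stand beside 71, and 34 of the 71 were lost, while on the large autosome arms the left bar is 1.94 to 2.91 times as tall as the right one.

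Of the 71 X peaks of MSL2 alone, 37 were kept (52.1%, 39.9 to 64.1), and of the 60 autosomal peaks 42 were kept (70.0%, 56.8 to 81.2). The intervals overlap. The kept share was 66.7% on 2L, 72.7% on 2R, 68.8% on 3L and 72.2% on 3R, so X was the lowest of the 5 arms with peaks. Counted by class, X held 36.3% of the 146 gained peaks on the arms (28.5 to 44.7), 46.8% of the 79 kept peaks (35.5 to 58.4) and 65.4% of the 52 lost peaks (50.9 to 78.0), where X makes up 17.6% of the arm length. These X shares depended on the place of the peaks in the lists, since X peaks were mostly near the end. In the first 50% of each list X held 9.59% of gained, 25.6% of kept and 23.1% of lost peaks, so there kept and lost peaks did not stand in the same order. When both lists were cut to 132 peaks in file order, 23.9% of the X peaks of MSL2 alone were kept, against 63.3% of the autosomal ones. That cut shortens only the list with the mutant and takes away its end. The last 76 peaks of that list hold 60 of its 90 X peaks, so the cut lowers the kept share on X by construction.

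The lost peaks lay largely where the mutant itself had a peak. An antibody to the FLAG tag, used on chromatin that had received the CLAMP mutant and no MSL2, marks such sites, and it has a negative control of its own. Of the peaks with the mutant, 4 of 226 overlapped such a FLAG site (1.77%), against 37 of 132 peaks of MSL2 alone (28.0%). The 4 were 1 gained peak and 3 kept peaks at their position with the mutant. By class, with kept peaks at their MSL2-alone position, 1 of 147 gained peaks (0.680%, 0.0172 to 3.73), 4 of 79 kept peaks (5.06%, 1.40 to 12.5) and 33 of 53 lost peaks (62.3%, 47.9 to 75.2) lay at one. The single gained peak was on the Y chromosome, and none of the 146 on the arms overlapped a FLAG peak. FLAG sites of unmutated CLAMP, also found without MSL2, gave almost the same division, with 1 gained, 5 kept and 35 lost peaks. This does not mean that MSL2 was absent there when mixed with unmutated CLAMP. In the MSL2 antibody list of that mixture, all lost peaks had a counterpart except those in msl-2, mtd, Tlk, CG1695, CG15803 and Gs2. Most kept and most gained peaks had one as well, so most gained sites were not particular to the mixture with the mutant. Where a peak had to overlap by 50% in both directions, 43.1% of lost peaks lay at a FLAG mutant site.

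**Figure D2:**
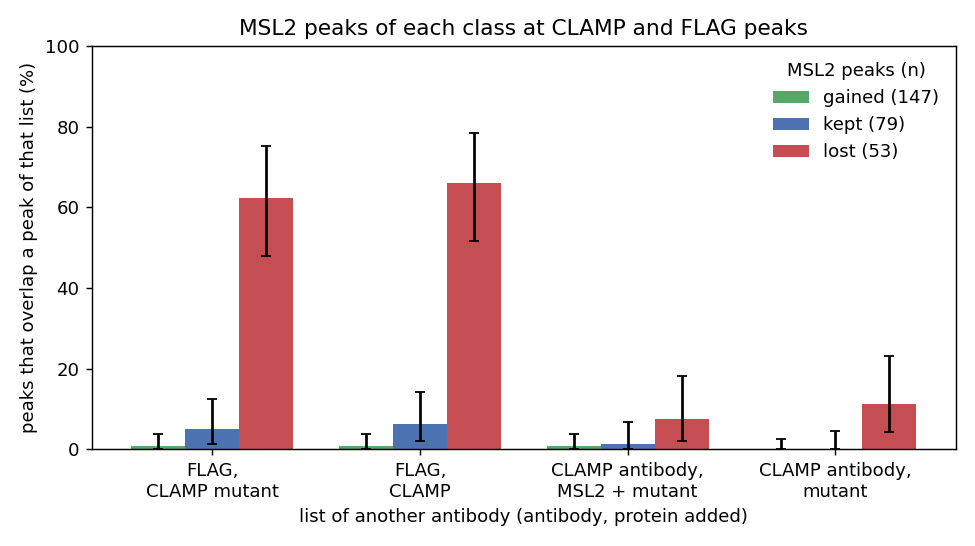
Share of gained, kept and lost MSL2 peaks (vertical axis, percent, with exact 95% intervals as error bars) that overlap a peak in each of 4 lists made with the FLAG or CLAMP antibody (horizontal axis). Lost peaks stand at 62.3% and 66.0% in the FLAG lists, while gained peaks stand at 0.680% in both.

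This division was seen on X and on the autosomes alike. At FLAG mutant sites, 3 of 24 X peaks of MSL2 alone were kept (12.5%, 2.66 to 32.4) and 1 of 13 autosomal peaks (7.69%, 0.195 to 36.0). Away from them, 34 of 47 X peaks were kept (72.3%, 57.4 to 84.4) and 41 of 47 autosomal peaks (87.2%, 74.3 to 95.2). FLAG mutant sites made up 24 of the 71 X peaks and 13 of the 60 autosomal peaks. These intervals reflect only how many peaks were counted in the merged lists, and neither contrast was tested.

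**Figure D3:**
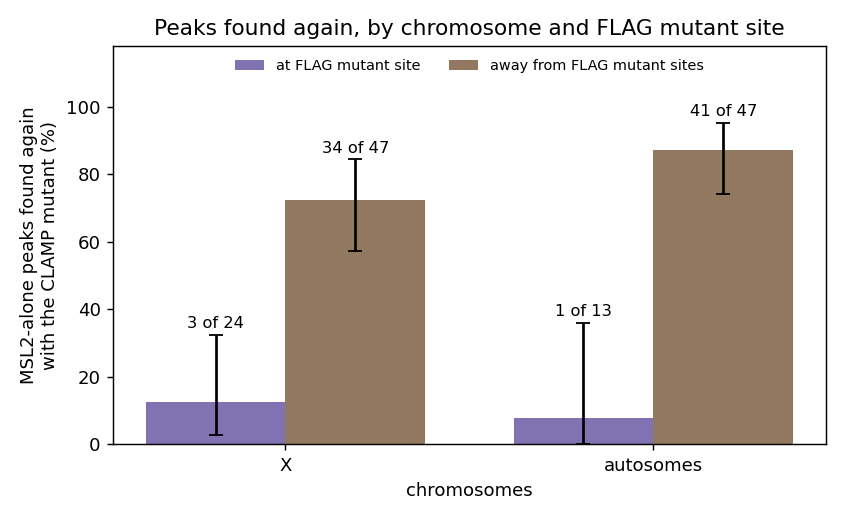
Share of MSL2-alone peaks found again with the CLAMP mutant (vertical axis, percent, with exact 95% intervals) at and away from FLAG mutant sites, for X and for the autosomes (horizontal axis). At FLAG mutant sites 3 of 24 and 1 of 13 peaks were kept, and away from them 34 of 47 and 41 of 47.

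With the CLAMP antibody the mixture of MSL2 and the mutant itself showed little of this. Of the gained peaks 1 of 147, of the kept peaks 1 of 79 and of the lost peaks 4 of 53 overlapped one of its peaks. The 4 lost peaks lay in para, CG34408 and CG1695 and 165 bp from CG34386, the kept one in msl-2 and the gained one in Clamp. Taken at their position with the mutant, 2 kept peaks overlapped one, both in msl-2. In the CLAMP antibody list of the mutant without MSL2, 0 gained, 0 kept and 6 lost peaks had a counterpart (11.3% of lost peaks, 4.27 to 23.0). The CLAMP antibody on unmutated CLAMP mixed with MSL2 listed 2 of the 147 gained, 23 of the 79 kept (29.1%, 19.4 to 40.4) and 38 of the 53 lost peaks (71.7%, 57.7 to 83.2). A FLAG site shows where the mutant was found without MSL2, and whether the mutant was bound there in the mixture was seen for few of these sites.

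At the 5 kept peaks with a FLAG CLAMP site, the MSL2 peak lay farther from the centre of the FLAG peak with the mutant than without it. These sites were chosen because the MSL2-alone peak overlapped a FLAG peak. That choice limits the distance for MSL2 alone but not the distance with the mutant. It thus favours this direction, which was not tested. In trh, a regulator of tracheal development, the distance was 65 bp with the mutant and 0 bp with MSL2 alone (3L, peak start 378058 with the mutant and 378123 alone). In CG46320, which overlaps sif, it was 133 bp with the mutant and 102 bp alone. In Tomosyn, an inhibitor of synaptic vesicle release, it was 40 bp and 24 bp, in CG42699 21 bp and 11 bp, and at the site nearest to CG33664 203 bp and 146 bp. The last of these MSL2 peaks (X 6379190 to 6379340 with the mutant) no longer overlapped the FLAG peak. Over all 79 kept peaks the centres of the 2 MSL2 peaks were 12 bp apart at the median and at most 110 bp, with 9 at exactly the same position and 36 within 10 bp, so single shifts at these 5 sites are within the range of the others. At the 35 lost peaks with a FLAG CLAMP site, the median distance to the FLAG centre was 23 bp, and it ran from 0 to 117 bp.

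Lost and gained peaks were seldom neighbours. Only 4 of the 53 lost peaks had a peak with the mutant within 1 kb, and the median distance to the nearest one was 84.0 kb. For gained peaks the nearest MSL2-alone peak was 360 kb away at the median, and 3 of 147 lay within 1 kb. The MSL2-alone list is the shorter one, so gained peaks had fewer peaks to be near. Lost peaks were also mostly on X, where peaks were denser, and gained peaks mostly on the autosomes. On X the median was 72.9 kb for lost and 109 kb for gained peaks. On the autosomes it was 162 kb for lost and 812 kb for gained peaks. The close cases were in msl-2, where a gained peak started 255 bp from a lost one, in CG1695 and disco-r, where a lost peak lay beside a kept one, on 2R, where a gained peak in CG30184 lay 732 bp from a kept one in Pi3K59F, and on Y, where a gained peak started 355 bp from a lost one. The gained and lost peaks of msl-2 are closer than the 300 bp required within a list, so no list could hold both. Whether they are the same site was not tested.

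**Figure D4:**
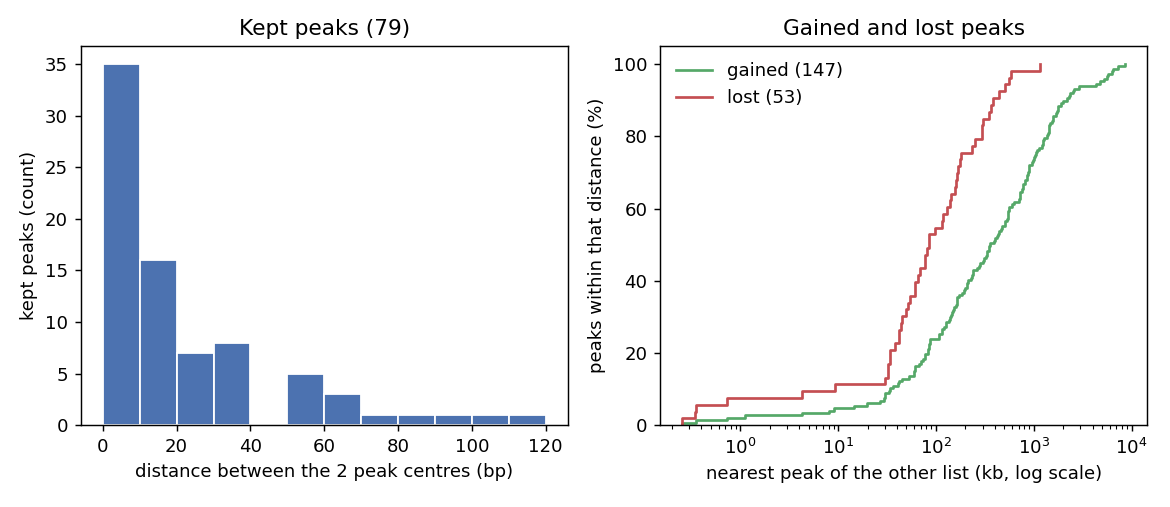
Left, distance between the centres of the 2 MSL2 peaks of each kept site (horizontal axis, bp) against the number of kept peaks. Right, share of gained and lost peaks (vertical axis, percent) whose nearest peak in the other list lies within a given distance (horizontal axis, kb, log scale), with medians of 360 kb and 84.0 kb.

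Most peaks of every class lay in a gene body, 121 of 147 gained peaks (82.3%), 70 of 79 kept peaks (88.6%) and 46 of 53 lost peaks (86.8%), where gene bodies cover 69.6% of the arms. Gained peaks touched 126 genes (0.713% of the 17684 genes of the arms), kept peaks 76 genes (0.430%) and lost peaks 51 genes (0.288%). In all, 237 genes had a peak of some class (1.34%). These were long genes, with a median length of 21.1 kb, against 1.71 kb for all genes. Of the 210 X genes of 20 kb or more, 27.1% had a peak, and of the 828 such autosomal genes 7.61%, which is the level to set a gene list against. By fate, 117 genes had gained peaks only, 42 lost peaks only and 64 kept peaks only, and 14 had peaks of more than 1 class.

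Among the 9 genes of the dosage compensation system and Clamp, 3 held peaks and 1 more had one nearby. The noncoding RNA gene roX2, which lies on X at 11579065 to 11580432, lost its only peak (X 11580230 to 11580380), and this site had no FLAG peak of either protein. No peak of these classes lay within 2 kb of roX1. The gene msl-2 itself (2L 3462218 to 3466112) held 5 peaks. Those starting at 3463371, 3463801 and 3464434 were kept, the one starting at 3465142 was lost and the one starting at 3464887 was gained, so 4 peaks were listed in this gene with the mutant and 4 with MSL2 alone. The lost and the gained peak started 255 bp apart, under the 300 bp required within a list, and may not be separate sites. Clamp gained 1 peak (2L 22166625 to 22166775), which the CLAMP antibody also listed in the same mixture. Both genes encode the added proteins. Without them 59.4% of the MSL2-alone peaks were kept, close to the value for all. A gained peak (X 5872789 to 5872939) lay 901 bp from mof, the histone acetyltransferase of the complex, inside the neighbouring gene GAA1. Within 2 kb of mle, JIL-1, msl-3 and msl-1 neither list had a peak.

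Genes of ion channels and gap junctions both lost and gained MSL2 peaks. Of 60 such genes, 13 had a peak (21.7%), most of them on X. The median length of the 60 was 16.9 kb, and 18 of them were on X. Among all genes of 20 kb or more, 27.1% had a peak on X and 7.61% on the autosomes. This list was drawn up with earlier results of these data known, so no enrichment is read from its share. The 13 genes held 8 gained, 3 kept and 6 lost peaks. All 6 lost peaks were at FLAG mutant sites, and none of the gained or kept ones was. Over all peaks, 33 of 53 lost, 4 of 79 kept and 1 of 147 gained ones lay at such sites. That is the level for this and the following gene lists, each of which holds few peaks. The lost peaks lay in para, the voltage-gated sodium channel (X 16501667 to 16501817), in Ca-alpha1T, of the T-type calcium channels (X 6189734 to 6189884), in Hk, a potassium channel beta subunit (X 10257626 to 10257776), in Sh, the Shaker potassium channel (X 18023814 to 18023964), and in eag, another potassium channel, which lost 2 peaks (X 14971224 to 14971374 and 14978961 to 14979111). The lost peak of Sh also overlapped CG6867, and that of Hk also overlapped asRNA:CR43959. Of the channel genes with a lost peak, para kept a second peak 9.19 kb away (X 16492474 to 16492624). Sh gained 2 peaks (X 17956200 to 17956350 and 17963132 to 17963282), the nearer one 60.7 kb from the lost one. Other gained peaks were in cac, the presynaptic calcium channel (X 11960225 to 11960375), SK, a potassium channel opened by calcium (X 5341674 to 5341824), nAChRalpha3, a nicotinic receptor subunit (X 8364494 to 8364644), shakB, an innexin of electrical synapses (X 20923714 to 20923864), Elk, a relative of eag, on 2R, and Rdl, a GABA receptor, on 3L. The kept peaks outside para were in iav, a TRP channel of hearing organs, and in Slob, named for binding the Slowpoke channel.

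Among 62 genes of synapses, axons and cell adhesion, 7 had peaks (11.3%), with 3 gained, 4 kept and 2 lost peaks. Their median length was 40.1 kb. Gained peaks were in Fas3, a homophilic adhesion molecule (2L 18323997 to 18324147), brp, the active zone protein Bruchpilot, and kirre, an adhesion molecule of myoblast fusion. The kept peaks were 2 in Tomosyn, 1 in hiw, a ubiquitin ligase that restrains synapse growth, and 1 in rsh. The other peak of rsh (X 13039176 to 13039326) was lost and lay 32.2 kb from the kept one, and tei lost its peak (2R 13629706 to 13629856). Both lost sites were FLAG mutant sites.

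Of 128 transcription regulators found in the gene table, 15 had peaks (11.7%), with 7 gained, 7 kept and 4 lost. The lost peaks were in acj6, a POU factor of olfactory neurons (X 15356686 to 15356836), OdsH, a homeobox gene (X 17812394 to 17812544), otp, a homeobox gene on 2R, and ftz-f1, a nuclear receptor of metamorphosis (3L 18788015 to 18788165). Of these 4, 3 were FLAG mutant sites, and OdsH was a FLAG site of unmutated CLAMP only. The lost peak of ftz-f1 also overlapped lncRNA:CR45939. Kept peaks were in trh, in pros, the neural fate factor Prospero (3R 11372803 to 11372953, at the same position in both lists), in psq, in rn, in Smr, a corepressor of nuclear receptors, and 2 in Cph, a zinc finger gene. Gained peaks were in sd, the DNA-binding partner of Yorkie, vri, a clock repressor, ab, hth, Eip93F, an ecdysone-induced factor, and again in rn and Smr, 14.5 kb and 26.7 kb from their kept peaks.

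Among 33 RNA-binding protein genes, 6 had peaks (18.2%). Those in mei-P26, which acts in germline differentiation (X 9174136 to 9174286), bru2 (2L 12366072 to 12366222) and nocte (X 10463463 to 10463613) were lost, all at FLAG mutant sites. The peak of brat, a translational repressor, was kept, and msi, which encodes Musashi, and heph gained 1 each. Of 68 genes of second messengers and kinases, 5 had peaks (7.35%), with 3 gained, 0 kept and 4 lost. In rdgA, the diacylglycerol kinase of photoreceptors, both peaks were lost (X 8908277 to 8908427 and 8924859 to 8925009), and only the second was a FLAG mutant site. norpA, the phospholipase C of phototransduction, lost its peak at a FLAG mutant site (X 4361603 to 4361753). Tlk lost a peak (X 3738150 to 3738300) and gained another 30.4 kb away, neither of them at a FLAG mutant site. The receptor gene dome and the phosphodiesterase gene Pde8 each gained 1. Together with ninaE, the main rhodopsin, which gained 1 peak, norpA and rdgA were the 3 of 23 phototransduction genes with a peak. For genes of 20 kb or more as a whole the share with a peak was 11.6%, and the lists also differ in how many of their genes are on X.

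Several genes held sites of different fate. In rsh, Neto, disco-r, para and CG1695 one peak was kept and another lost, and in each the lost one was a FLAG mutant site and the kept one was not. In disco-r, a zinc finger gene, the kept and lost peaks started 704 bp apart (X 16146982 and 16147686), and in CG1695 only 367 bp apart (X 20436726 and 20437093). In Neto, whose product is an auxiliary subunit of glutamate receptors, they were 34.1 kb apart. Of the 9 genes with a lost and another peak, 6 had a FLAG mutant site under the lost peak, and 0 of their 14 other peaks lay at one. These counts are near the shares over all peaks, 33 of 53 lost, 4 of 79 kept and 1 of 147 gained. Dop2R, a dopamine receptor gene, had a kept and a gained peak 1.11 kb apart, and CG42594 and Myo81F also had both. Among genes with gained peaks only, mbl held 2 on 2R, 1.34 kb apart. The overlapping genes oys and CG34220 shared 2 gained peaks, 1.42 kb apart.

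The remaining lost peaks at FLAG mutant sites lay in CG42366, tna, CG32137, mtd, CG15803, ctp (a dynein light chain gene), CG34408, CG32694, Cyp4g15 (a cytochrome P450 gene), Mnr and a stretch shared by CG1677, Atg5 and lncRNA:CR44357, and in 3 places outside genes, nearest to CG34386, CG43245 and tRNA:Phe-GAA-1-6. One more, 2094 bp from CG15465, was at a FLAG site of unmutated CLAMP only. The 18 lost peaks without a FLAG site of either protein included 11 on X and 6 on the autosomes. Besides those in msl-2, roX2, Tlk and rdgA they lay in Gs2, a glutamine synthetase gene (X 11427452 to 11427602), TyrRII, a tyramine receptor gene (3R 17736619 to 17736769), Dab, an adaptor of Abl signalling (3L 16712592 to 16712742), Pits, htk, kairos, dtn, CG8097, CG6184 and the pair CG43902 and asRNA:CR44894, and outside genes nearest to tup, lncRNA:CR43856 and a Su(Ste) gene of Y. Of these 18, 11 were also listed for the CLAMP antibody when MSL2 was mixed with unmutated CLAMP. The lost peak of Mnr also overlapped tRNA:Arg-TCG-2-2. Where genes overlap, the peak cannot be given to one of them.

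Peaks near the start of a list were kept more often than those near its end. In the list with the mutant, 36 of the first 75 peaks (48.0%, 36.3 to 59.8), 24 of the next 75 (32.0%) and 19 of the last 76 (25.0%, 15.8 to 36.3) were also found with MSL2 alone. In the MSL2-alone list, 31 of the first 44 peaks (70.5%, 54.8 to 83.2), 27 of the next 44 (61.4%) and 21 of the last 44 (47.7%, 32.5 to 63.3) were kept. The later stretches of both lists held more X peaks, 9, 21 and 60 of them in turn with the mutant and 8, 23 and 40 with MSL2 alone. Within the MSL2-alone list 7 of 8, 12 of 23 and 18 of 40 X peaks were kept in these stretches, and 24 of 35, 15 of 21 and 3 of 4 autosomal peaks. What the order ranks is not given in the file headers, and its part in the results was not tested.

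**Figure D5:**
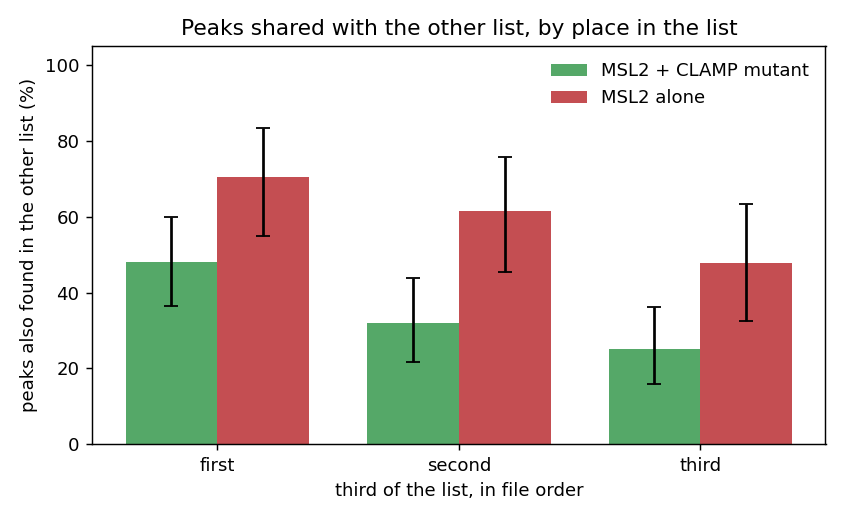
Share of peaks also found in the other list (vertical axis, percent, with exact 95% intervals) for the first, second and last stretch of each list in file order (horizontal axis), with MSL2 + CLAMP mutant left of MSL2 alone. The first stretch stands at 48.0% with the mutant and 70.5% with MSL2 alone, and the last at 25.0% with the mutant and 47.7% with MSL2 alone.

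By file order, the first gained peak was in ecd, a gene needed for ecdysteroid production (3L 2263685 to 2263835), followed by Tet, a gene of the TET dioxygenase family (3L 2879136 to 2879286), and Glut1, a glucose transporter gene (3L 917064 to 917214). Among the first 10 gained peaks were also those in ImpE1 and Spn. The first kept peaks were in trh, msl-2 and Tomosyn (X 12649566 to 12649716). That first one in msl-2 also overlapped mir-4971. Among the first 10 kept peaks were also those in CG15570, CG33003 and Vha100-2. The first lost peaks were in CG32137 (3L 13949580 to 13949730), msl-2 and tei.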

How the data were processed

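The authors called peaks with HOMER findPeaks (factor style) on the merged tags of each group against the negative control of the same antibody, per the file headers. Bowtie2 2.2.9, SAMtools 1.9, HOMER 4.9 and build dm6 are named in the submitters' processing notes. Headers give a false discovery rate of 0.001 and tag numbers scaled to 10000000. The deposited score is 1 in every line and was not used. All peaks of both MSL2 lists are 151 bp wide, so the 10 widest could not be chosen.

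Starts were converted to 1-based positions. Overlaps and exact 95% intervals were computed in Python 3.11.15 (scipy 1.17.1). The overlaps were checked with bedtools 2.31.1, and the overlap matching was tested on simulated data. Genes and their extents came from a RefSeq table (Release 6 plus ISO1 MT), which gives no strand or exons. Arm lengths were taken as the highest end of any gene or peak. Of the listed transcription regulators 128 of 130 matched the table by symbol, of RNA-binding genes 33 of 34 and of signalling genes 68 of 71, and every gene of the other lists. Peaks were given to every gene body they overlap. The comparison, gene lists and rules were chosen with earlier results of these data known. Genes were named if a lost peak lay in them, if they were in a list, had at least 2 peaks, or were among the first 10 peaks of a class in file order. One gene that the rule names is not reported here.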

Additional observations from a re-analysis of the deposited data

How the results depend on the processing

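Of 68 values of the 11 counts and shares under 11 alternatives, 55 stayed within the 95% interval of the reported share or within 1.5 times the reported count, and 13 did not. With both lists cut to equal length in file order, 41.7% of the MSL2-alone peaks and 23.9% of those on X were found again with the mutant, 58.3% of the peaks with the mutant were gained, X held 9.21% of gained and 30.9% of kept peaks, and 44.2% of lost peaks lay at FLAG mutant sites. The list with the mutant is then shorter by construction and lacks its end, where most of its X peaks lay. In the first 50% of each list X held 9.59% of gained, 25.6% of kept and 23.1% of lost peaks, and 64 genes had only gained, 37 had kept and 21 had only lost peaks, from fewer peaks by construction. With 50% reciprocal overlap, 43.1% of lost peaks lay at FLAG mutant sites; the criterion also applied to the FLAG peaks, which need not share the MSL2 peak's centre. Alternatives not run were a stricter score and leaving out a replicate. No paired analysis was possible because each group has 1 merged peak list.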

Other observations

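Several gained peaks lay in genes outside the gene lists that serve neurons, chosen here after their positions were seen. They included nan, which encodes the TRP channel partner of the product of iav (3L 14186701 to 14186851), unc80, a part of the sodium leak channel complex (3R 27663167 to 27663317), CngB, a gene of a cyclic nucleotide-gated channel on 2R, and Gad1, the enzyme that makes GABA (3L 4079325 to 4079475). DIP-gamma and dpr8, genes of 2 families of cell surface proteins that bind each other, each gained 1 peak (3R 28937607 to 28937757 and X 14327918 to 14328068), while the peak of DIP-beta was kept (X 21443991 to 21444141). Others were not neuronal by name, such as Mhc, the muscle myosin heavy chain gene (2L 16787535 to 16787685), tmod, a capping protein gene of actin filaments (3R 30548118 to 30548268), and fkh, a regulator of salivary glands (3R 28584615 to 28584765). None of these sites was a FLAG site of CLAMP or of its mutant.

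On Y, which was left out of the arm counts, each list had 1 peak, starting at 860203 with the mutant and at 860558 with MSL2 alone. Both lay outside genes, nearest to a Su(Ste) gene, a multicopy family of this chromosome.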
